A study of Homo sapiens with 12 samples.

Results

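Actin and its binding proteins were followed here as 10 genes: the cytoplasmic actins ACTB and ACTG1, the transcription factor SRF, the monomer and filament binding proteins CFL1, PFN1, TMSB4X and TMSB10, the filament proteins TPM4 and MYH9, and the intermediate filament protein VIM. They were chosen by gene name, with earlier results of these data known. Each name occurred once in the count table, and all 10 of 10 had enough counts for a test, as did 20821 of the 58735 genes of the series. The cells were K562, a human erythroleukemia line with the BCR-ABL1 fusion kinase. In all 12 libraries K562 cells were used, with no other genetic change named, in 4 groups of 3 biological replicates. Mock DMSO cells received solvent only, mock nilotinib cells 0.1 µM nilotinib, an inhibitor of the ABL1 kinase, hemin DMSO cells 50 µM hemin for 24 h, and hemin nilotinib cells a pretreatment with nilotinib before hemin at the same doses. The study's scheme draws all groups with the same time in nilotinib. Its methods instead give a pretreatment of 24 h and place the mock collection at 0 h of hemin. The comparisons of hemin with mock may thus also hold 24 h more in culture. The nilotinib comparisons with and without hemin may likewise differ in time in nilotinib. Their difference, the interaction below, cannot tell this time apart from hemin.

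Actin monomers polymerise into filaments that give a cell its shape and carry contraction. Cofilin severs filaments, profilin feeds monomers to growing ends, and the beta-thymosins hold monomers in reserve. Tropomyosin lies along the filament and non-muscle myosin pulls on it, while vimentin builds a separate network of intermediate filaments. SRF switches on many actin genes, with cofactors that are held back by free actin monomers, and it binds a short DNA element named the CArG box. In erythroid cells the actin network is rebuilt into the short filaments of the red cell membrane skeleton. ACTB is also a common reference gene, and it was the one used for RT–qPCR in the study.

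Total counts per library ran from 33457078 to 50506990. Levels are given as CPM, counts per 1000000 after scaling by edgeR's TMM factors, and as CPM per kb of gene length where different genes are compared. All 7 erythroid and K562 markers (such as GATA1) averaged at least 1 CPM in every group, with summed levels of 976 to 1874 CPM without nilotinib and 3629 to 6781 CPM with it. The 6 myeloid markers summed to 84.9 to 111 CPM without nilotinib and to 9.80 to 20.5 CPM with it, with MPO at 0 in hemin nilotinib. The 6 lymphoid markers summed to 8.80 to 25.8 CPM without nilotinib and to 1.58 to 4.49 CPM with it, and the 6 megakaryocyte markers to 34.7 to 74.8 CPM and 15.4 to 37.1 CPM. The 6 fibroblast markers summed to at most 34.5 CPM, and PF4, MS4A1 and LUM were at 0 in several groups. The myeloid, lymphoid and megakaryocyte sums were lower in the nilotinib groups, as were most of the 10 genes described below. The lower megakaryocyte sum came mainly from ITGA2B, with means of 49.5 to 15.8 CPM without hemin and 45.1 to 10.6 CPM with it. In the same list ITGB3 was higher under nilotinib (1.957 to 10.98 and 1.439 to 6.303 CPM), as was GP1BA in both hemin states. That sum thus does not describe the megakaryocyte markers as a set. The part of the marker sums in the falls of the 10 genes was not tested. In such bulk RNA, fewer cells of a type and less RNA per cell cannot be told apart.

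The CArG box was searched for in windows from 250 bases before to 50 after the gene starts in RefSeq (GRCh38.p14), since SRF and its targets were both among the 10 genes. Windows were matched for 9 of the 10 genes, all but ACTB. Of their 12 windows 3 (25%) held the box, against 454 of all 35116 windows (1.29%). As SRF and its targets were among the genes chosen, this contrast describes them and was not tested. The box reads alike on both strands, and no matches overlapped each other. The matches are shown with 10 flanking bases on each side, 5′ to 3′ on the gene's strand, with the box in capitals. The ACTG1 match lies 94 to 85 bases before the start (chr17:81512874-81512903, minus strand), the SRF matches 30 to 21 (chr6:43171229-43171258, plus strand) and 10 to 1 bases before it (chr6:43171249-43171278, plus strand), and the TPM4 match 173 to 164 bases before the first of 3 listed starts (chr19:16067355-16067384, plus strand).
ACTG1: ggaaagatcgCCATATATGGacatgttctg
SRF, outer: ctggggctcaCCATATAAGGagcggcctcg
SRF, inner: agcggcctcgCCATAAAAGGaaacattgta
TPM4: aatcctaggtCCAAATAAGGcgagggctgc
The windows of CFL1, PFN1, TMSB4X, TMSB10, VIM and MYH9 held no match of these letters. Beyond the 10 genes, the windows of ACTA1, ACTC1, ACTG2, ACTN1, CNN2, FLNA and ROCK2 held a match, 7 of the 153 windows of the actin cytoskeleton genes listed below (4.58%).

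Under nilotinib, most of the 10 genes fell and MYH9 rose, with and without hemin. In the presence of hemin 8 fell, 1 rose and ACTB did not pass the test, whereas 31.8% of all genes tested fell and 32.4% rose. Without hemin 8 fell, 1 rose and PFN1 did not pass, whereas 21.8% of all genes fell and 20.7% rose. The median log2 fold change of the 10 genes was -1.28 with hemin and -1.22 without, beside 0.02 and 0.0039 over all genes tested. The libraries compared did not overlap for 9 of the 10 genes with hemin, against 63.5% of all genes, and for 10 of 10 without hemin, against 61%. As the 10 genes were chosen with earlier results of these data known, these contrasts describe them and do not test them as a set.

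**Figure D1:**
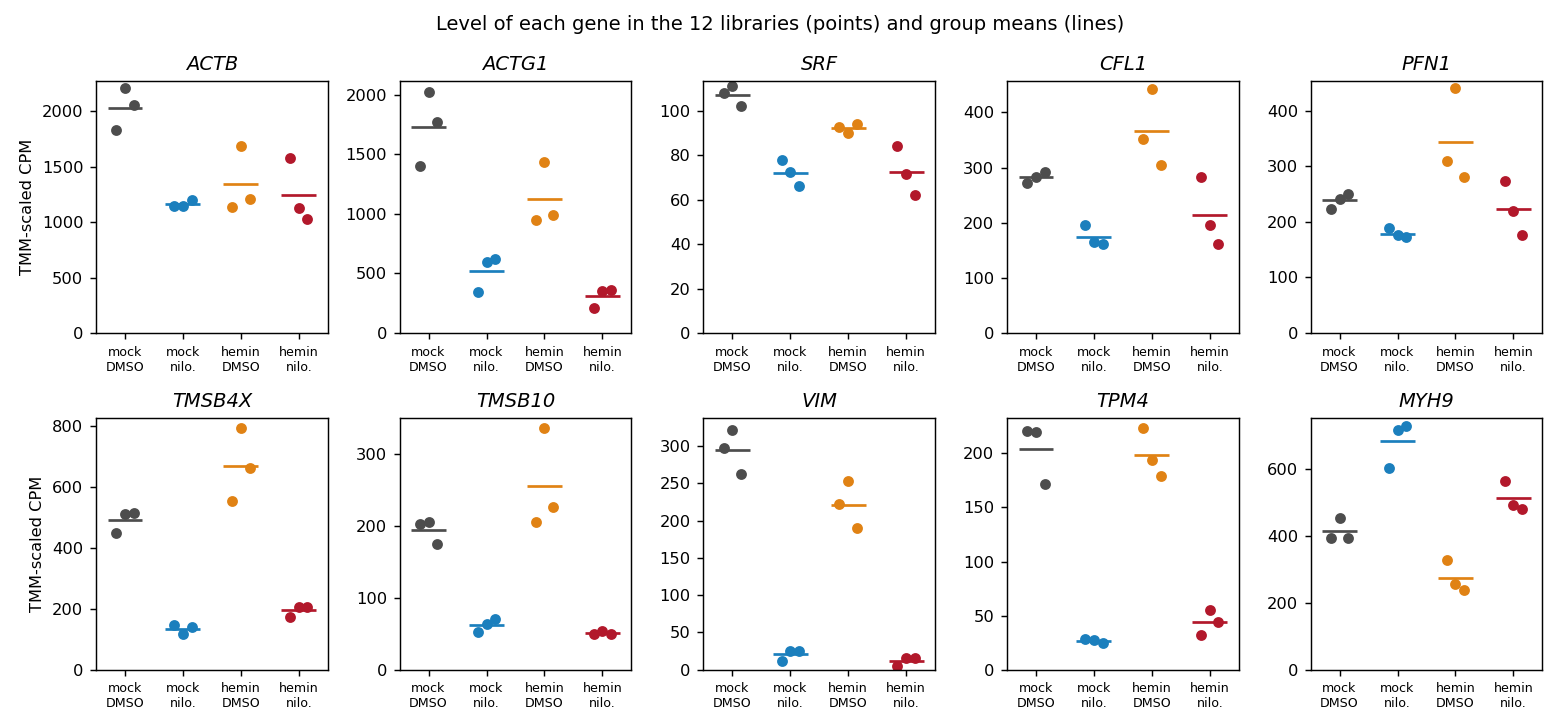
Level of each of the 10 genes in TMM-scaled CPM (y axis, linear from 0) in the 3 libraries of each group (points, replicates 1 to 3 from left to right) with the group mean (line). The nilotinib libraries lie below the DMSO libraries of the same hemin state for every gene but MYH9, where they lie above, and ACTB with hemin, where they overlap.

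The 2 cytoplasmic actins differ in few residues and share most cellular roles. Their coding sequences have 1128 bases each in GENCODE 29, of which 91.2% are identical, with no identical run longer than 59 bases. No stretch of 150 bases, the length of 1 read, in a transcript of either gene recurred in a transcript of another gene.

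ACTB lies on chromosome 7 (5527147 to 5563784, minus strand, GRCh38). It reached 1826, 2213 and 2056 CPM in mock DMSO and 1144, 1145 and 1199 CPM in mock nilotinib. The mock nilotinib libraries were all lower, and ACTB fell by 0.81 on the log2 scale (SE 0.19), a 1.75-fold fall (edgeR quasi-likelihood test with Benjamini-Hochberg adjustment, adjusted p = 0.00231). In hemin DMSO it stood at 1139, 1688 and 1206 CPM, and in hemin nilotinib at 1582, 1129 and 1030 CPM. These hemin libraries overlap, with replicate 2 high in the former and replicate 1 high in the latter, and the log2 fold change of -0.11 (SE 0.18, 95% interval -0.50 to 0.28) did not pass the test (edgeR adjusted p = 0.622). The direction of ACTB under nilotinib with hemin turned to 0.091 without hemin DMSO replicate 2, to 0.025 without hemin nilotinib replicate 3, to 0.074 with library totals alone and to 0.57 with factors from 12 reference genes, where it passed as a rise (edgeR adjusted p = 0.00262).

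ACTG1 lies on chromosome 17 (81509971 to 81523847, minus strand). It was at 1399, 2023 and 1768 CPM in mock DMSO, 347, 595 and 624 CPM in mock nilotinib, 945, 1435 and 993 CPM in hemin DMSO, and 211, 351 and 361 CPM in hemin nilotinib. Replicate 1 was the lowest of its group in all 4 groups. ACTG1 fell 3.31-fold under nilotinib without hemin (log2 -1.73, SE 0.25, edgeR adjusted p = 4.44e-05) and 3.66-fold with hemin (log2 -1.87, SE 0.25, edgeR adjusted p = 9.25e-06). Leaving out any 1 library kept these values between -1.91 and -1.51 and between -1.99 and -1.65.

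Per kb of gene length, the ratio of ACTG1 to ACTB within a library does not depend on how libraries are scaled. It was 0.901, 1.08 and 1.01 in mock DMSO and 0.976, 0.999 and 0.968 in hemin DMSO, so that both actins were counted at about the same level per kb in the absence of nilotinib. It was 0.357, 0.611 and 0.612 in mock nilotinib and 0.156, 0.366 and 0.412 in hemin nilotinib. The means were 0.996 ± 0.088, 0.981 ± 0.016, 0.527 ± 0.147 and 0.311 ± 0.136 (SD, n = 3), and no nilotinib library reached the lowest DMSO library. For 3 against 3 libraries an exact two-sided permutation test cannot go below p = 0.1, so ratios were not tested.

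**Figure D2:**
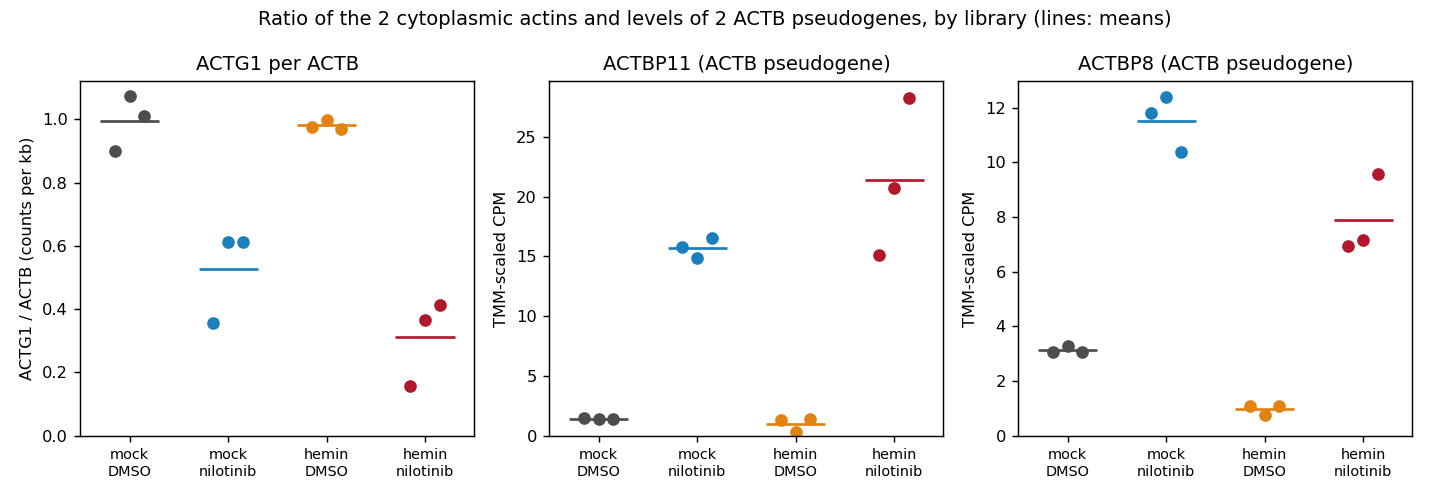
Left, ACTG1 counts per kb divided by ACTB counts per kb in each library (points) with group means (lines). Middle and right, levels of the ACTB pseudogenes ACTBP11 and ACTBP8 in TMM-scaled CPM. The ratio is near 1 in the 6 DMSO libraries and at most 0.612 in the 6 nilotinib libraries, where both pseudogenes are higher.

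Processed pseudogenes, copies of an mRNA pasted back into the genome, can take reads from their parent gene. The table lists 57 pseudogenes named after the 10 genes, with 7 parents, and 10 of them averaged at least 20 counts. Together they held 0.079 to 3.56% of the counts of ACTB and its pseudogenes, 0.17 to 2.23% for ACTG1, 0.091 to 0.35% for CFL1, 1.03 to 2.40% for PFN1 and 2.56 to 3.35% for TMSB4X. Adding them to the parents changed no call of the 10 genes. ACTBP11 (chromosome 1, 223863726 to 223864851) was at 1.46, 1.41 and 1.42 CPM in mock DMSO, 15.8, 14.8 and 16.5 CPM in mock nilotinib, 1.32, 0.319 and 1.37 CPM in hemin DMSO, and 15.1, 20.7 and 28.3 CPM in hemin nilotinib. It rose under nilotinib by a log2 fold change of 3.46 without hemin and 4.39 with hemin (edgeR adjusted p = 5.04e-07 and 3.12e-08), while ACTB fell without hemin and did not pass the test with it. ACTBP8 (chromosome 6, 88275882 to 88276989) rose likewise, from a mean of 3.13 to 11.5 CPM without hemin (log2 fold change 1.88) and from 0.976 to 7.89 CPM with hemin (log2 fold change 3.01). Neither pseudogene shared a stretch of 150 bases with another transcript. The TMSB4X pseudogene TMSB4XP8 is only 135 bases long and fell with its parent, by 1.95 without hemin and by 1.90 with hemin on the log2 scale, from 14.6 to 3.77 and from 21.0 to 5.61 CPM. The other 7 were ACTG1P20, ACTG1P1, ACTG1P17, ACTG1P3, PFN1P2, PFN1P1 and PFN1P4, at mean counts of 24.6 to 57.3, and of these PFN1P2 and PFN1P4 shared 8.18% and 5.93% of their 150-base words with other PFN1 pseudogenes.

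SRF, on chromosome 6 (43171299 to 43181507, plus strand), is the factor that binds the CArG box. It was at 108, 111 and 102 CPM in mock DMSO and 78.0, 72.3 and 66.4 CPM in mock nilotinib, without overlap, a fall of 0.57 on the log2 scale (SE 0.12, edgeR adjusted p = 0.00156). With hemin it was at 92.8, 90.1 and 94.1 CPM in DMSO and 84.1, 71.7 and 62.1 CPM in nilotinib, a smaller fall of 0.35 (SE 0.12, edgeR adjusted p = 0.0228). The latter call was lost without hemin DMSO replicate 3 (-0.34), hemin nilotinib replicate 2 (-0.34) or hemin nilotinib replicate 3 (-0.23), with library totals alone (-0.17), with all genes of at least 1 count (-0.31) and with the libraries of the comparison alone (-0.32). With factors from the reference genes the sign turned to 0.30.

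CFL1 and PFN1 encode cofilin and profilin, which turn filaments over. CFL1 (chromosome 11, 65823022 to 65862026, minus strand) was at 273, 283 and 292 CPM in mock DMSO, 196, 165 and 162 CPM in mock nilotinib, 351, 443 and 304 CPM in hemin DMSO, and 283, 196 and 162 CPM in hemin nilotinib. It fell by 0.70 on the log2 scale without hemin (SE 0.18, edgeR adjusted p = 0.00599) and by 0.78 with hemin (SE 0.18, edgeR adjusted p = 0.00158), and the value with hemin was -0.099 and did not pass under the reference gene factors. MUS81 and SNX32 lie across parts of CFL1 on the opposite strand, where exons overlap 19.0% of the CFL1 exon length in all. The counting was not stated to use strand, so reads of both strands cannot be told apart there.

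PFN1 (chromosome 17, 4945652 to 4949061, minus strand) was at 224, 242 and 250 CPM in mock DMSO and 189, 176 and 173 CPM in mock nilotinib. The libraries did not overlap, but the log2 fold change of -0.41 (SE 0.17) missed the threshold (edgeR adjusted p = 0.0655). With the replicate number as a block it was -0.42 and passed narrowly (edgeR adjusted p = 0.0499). That block was fitted over all 12 libraries, though the number was taken to pair only some groups, these among them. The fall also passed with library totals alone (-0.44), all genes of at least 1 count (-0.44) and the libraries of the comparison alone (-0.41). With hemin PFN1 was at 309, 440 and 281 CPM in DMSO and 273, 219 and 177 CPM in nilotinib, and fell by 0.62 on the log2 scale (SE 0.17, edgeR adjusted p = 0.00527). Under the reference gene factors that direction turned to 0.065.

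TMSB4X and TMSB10 encode the beta-thymosins, small proteins that sequester actin monomers. TMSB4X (chromosome X, 12975108 to 12977227, plus strand) was at 448, 510 and 514 CPM in mock DMSO, 147, 119 and 140 CPM in mock nilotinib, 554, 793 and 661 CPM in hemin DMSO, and 172, 206 and 207 CPM in hemin nilotinib. It fell 3.63-fold under nilotinib without hemin (log2 -1.86, SE 0.15, edgeR adjusted p = 1.06e-07) and 3.43-fold with hemin (log2 -1.78, SE 0.15, edgeR adjusted p = 7.02e-08). TMSB10 (chromosome 2, 84905625 to 84906675, plus strand) was at 203, 206 and 175 CPM in mock DMSO, 52.7, 63.7 and 71.1 CPM in mock nilotinib, 206, 336 and 227 CPM in hemin DMSO, and 49.4, 53.8 and 49.6 CPM in hemin nilotinib. It fell 3.11-fold without hemin (log2 -1.64, SE 0.17, edgeR adjusted p = 1.36e-06) and 5.03-fold with hemin (log2 -2.33, SE 0.18, edgeR adjusted p = 1.64e-08). Between these falls the difference was -0.69 on the log2 scale (SE 0.24, edgeR adjusted p for the interaction = 0.0370). It was lost in 11 of 20 alternatives, namely without mock DMSO replicate 1, 2 or 3 (-0.65, -0.72 and -0.57), mock nilotinib replicate 2 or 3 (-0.65 and -0.56), hemin DMSO replicate 2 (-0.45) or hemin nilotinib replicate 2 or 3 (-0.71 and -0.63), with limma (-0.69), library totals alone (-0.47) and the reference gene factors (-0.12).

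VIM, the gene of vimentin (chromosome 10, 17228259 to 17237593, plus strand), showed the largest change of the 10 under nilotinib in both comparisons. It was at 297, 322 and 263 CPM in mock DMSO, 11.5, 24.7 and 25.5 CPM in mock nilotinib, 222, 253 and 190 CPM in hemin DMSO, and 5.29, 15.6 and 15.1 CPM in hemin nilotinib. Replicate 1 was the lowest of both nilotinib groups, as for ACTG1. VIM fell 14.3-fold without hemin (log2 -3.84, SE 0.35, edgeR adjusted p = 2.61e-07) and 18.4-fold with hemin (log2 -4.20, SE 0.35, edgeR adjusted p = 4.86e-08). Without any 1 library the values stayed between -4.05 and -3.55 and between -4.45 and -3.84. Antisense exons overlap 24.4% of the VIM exon length in all, where VIM-AS1 and another gene lie on that strand.

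TPM4 encodes a short tropomyosin of non-muscle cells (chromosome 19, 16067021 to 16103005, plus strand). It was at 221, 219 and 172 CPM in mock DMSO, 28.2, 27.6 and 24.7 CPM in mock nilotinib, 223, 194 and 179 CPM in hemin DMSO, and 32.1, 55.2 and 44.3 CPM in hemin nilotinib. The fall under nilotinib was 7.60-fold without hemin (log2 -2.93, SE 0.18, edgeR adjusted p = 4.96e-09) and 4.53-fold with hemin (log2 -2.18, SE 0.18, edgeR adjusted p = 3.60e-08). TPM4 thus fell less with hemin than without, by 0.75 on the log2 scale (SE 0.24, edgeR adjusted p for the interaction = 0.0285), a difference that missed the threshold in 6 of 20 alternatives, namely with limma (0.53) and without mock DMSO replicate 2 (0.70), mock nilotinib replicate 3 (0.72), hemin DMSO replicate 2 (0.72) or 3 (0.66), or hemin nilotinib replicate 2 (0.57). An antisense gene overlaps 9.60% of its exon length.

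MYH9 encodes the heavy chain of non-muscle myosin IIA (chromosome 22, 36281277 to 36388067, minus strand) and was the 1 gene of the 10 that rose under nilotinib. It was at 394, 456 and 394 CPM in mock DMSO, 605, 718 and 730 CPM in mock nilotinib, 328, 256 and 239 CPM in hemin DMSO, and 566, 494 and 481 CPM in hemin nilotinib. The groups did not overlap, and MYH9 rose by 0.72 on the log2 scale without hemin (SE 0.15, edgeR adjusted p = 9.08e-04) and by 0.90 with hemin (SE 0.15, edgeR adjusted p = 6.25e-05). The rise was found under every scaling tried, between 0.64 and 0.84 without hemin and between 0.81 and 1.56 with hemin over all alternatives.

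**Figure D3:**
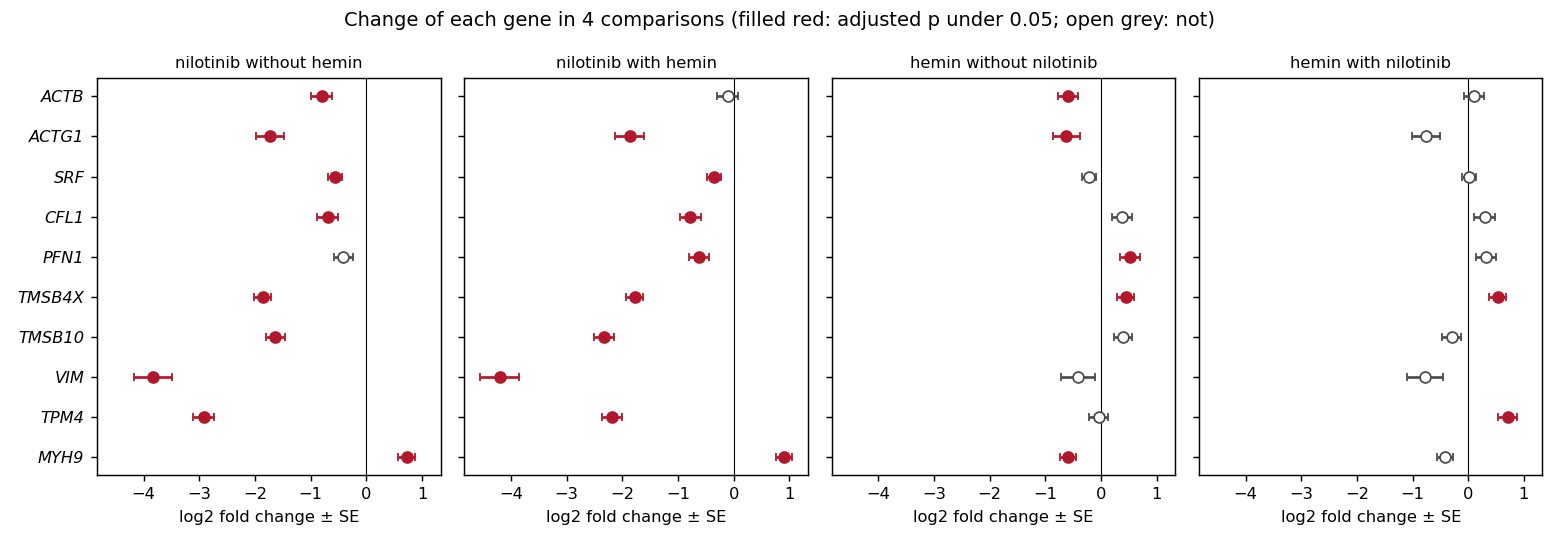
log2 fold change (x axis) with its standard error for each of the 10 genes in 4 comparisons, from edgeR's quasi-likelihood fit. Filled red points have an adjusted p under 0.05. The 2 nilotinib panels run from -4.20 for VIM to 0.90 for MYH9, and the 2 hemin panels from -0.77 for VIM to 0.71 for TPM4.

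Hemin alone changed 5 of the 10 genes, fewer than nilotinib. In the absence of nilotinib PFN1 rose by 0.52 and TMSB4X by 0.45 on the log2 scale (SE 0.17 and 0.15, edgeR adjusted p = 0.0180 and 0.0194), while ACTB fell by 0.60, ACTG1 by 0.62 and MYH9 by 0.60 (SE 0.19, 0.25 and 0.15, edgeR adjusted p = 0.0126, 0.0433 and 0.00294). Among all genes tested 25.7% rose and 27.8% fell, so 5 of 10 is close to this background. The ACTG1 libraries overlapped, and its call was lost in 7 of 15 alternatives, with DESeq2 (-0.59), RLE factors (-0.58) and limma (-0.60), without mock DMSO replicate 2 or 3 (-0.51 and -0.65) and without hemin DMSO replicate 1 or 3 (-0.50 and -0.52). The ACTB call was lost without hemin DMSO replicate 1 (-0.48) or replicate 3 (-0.51). The PFN1 call was lost without any 1 of the mock DMSO libraries (0.41, 0.52 and 0.52) or hemin DMSO replicate 2 (0.31), and the TMSB4X call without mock DMSO replicate 1 or 3 (0.32 and 0.44) or hemin DMSO replicate 2 (0.31) and with all genes of at least 1 count (0.37). The values of PFN1 and TMSB4X were 0.27 and 0.20 with library totals alone, where they did not pass the test, and turned to -0.17 and -0.23 with the reference gene factors. SRF, CFL1, TMSB10, VIM and TPM4 had log2 fold changes of -0.22, 0.37, 0.40, -0.41 and -0.04 and did not pass. Libraries did not overlap for 8 of the 10, against 62.7% of all genes.

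Ratios within a library need no scaling between libraries. TMSB4X per kb relative to ACTB was 0.4996 ± 0.021 in mock DMSO and 1.03 ± 0.085 in hemin DMSO, and PFN1 relative to ACTB was 0.209 ± 0.013 and 0.451 ± 0.035 (SD, n = 3). In the nilotinib groups TMSB4X relative to ACTB was 0.240 ± 0.025 in mock and 0.338 ± 0.101 in hemin, and PFN1 relative to ACTB 0.273 ± 0.019 and 0.318 ± 0.022. The ratio of TMSB10 to TMSB4X lay at 1.37 ± 0.20, 1.61 ± 0.33 and 1.31 ± 0.14 in mock DMSO, mock nilotinib and hemin DMSO, and at 0.904 ± 0.083 in hemin nilotinib.

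With nilotinib present, hemin raised TMSB4X by 0.53 (SE 0.15, edgeR adjusted p = 0.0495) and TPM4 by 0.71 on the log2 scale (SE 0.17, edgeR adjusted p = 0.0264). The other 8 genes did not pass, where 3.52% of all genes rose and 2.28% fell. Libraries did not overlap for 3 of the 10, against 23.3% of all genes. ACTG1 had a log2 fold change of -0.76 (SE 0.25) and missed the threshold (edgeR adjusted p = 0.0806). With the replicate number as a block over all 12 libraries ACTG1 passed (edgeR adjusted p = 0.0117), and the number was taken to pair these groups. ACTB had a log2 fold change of 0.10 with a 95% interval of -0.29 to 0.49. The calls of TMSB4X and TPM4 were lost without mock nilotinib replicate 2 (0.42 and 0.71), mock nilotinib replicate 3 (0.53 and 0.63), hemin nilotinib replicate 2 (0.46 and 0.48) or hemin nilotinib replicate 3 (0.48 and 0.69), and that of TMSB4X also without mock nilotinib replicate 1 (0.59). Both were lost with the reference gene factors (0.40 and 0.58), with limma (0.51 and 0.53) and with the libraries of the comparison alone (0.54 and 0.72), and that of TMSB4X with RLE factors (0.52) and library totals alone (0.497), in all 10 of 16 alternatives for TMSB4X and 7 of 16 for TPM4. With the reference gene factors ACTG1 (-0.87) and MYH9 (-0.54) passed in their place. In the test of whether the response to nilotinib differed with hemin, ACTB reached a difference of 0.70 (SE 0.26) and missed the threshold (edgeR adjusted p = 0.0542), but passed in 6 of 20 alternatives, with library totals alone (0.91), the reference gene factors (1.25), all genes of at least 1 count (0.77), and without mock DMSO replicate 1 (0.85), hemin DMSO replicate 2 (0.89) or hemin nilotinib replicate 3 (0.86). In the same test TPM4 and TMSB10 passed as above, and the other 7 did not pass, beside 17.1% of all genes higher and 13% lower in this test.

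Per kb of gene length, the order of the 10 genes changed between groups. The length counts every annotated exon of a gene, so the order within a group also depends on the annotation. In mock DMSO, ACTG1 (578 ± 105 CPM per kb) and ACTB (577 ± 55.3) led and did not differ beyond their spread, followed by TMSB10 (392 ± 34.7), TMSB4X (288 ± 21.7), PFN1 (120 ± 6.85) and VIM (57.0 ± 5.77). CFL1 (48.2 ± 1.63) and MYH9 (46.0 ± 3.94) did not differ beyond their spread, nor did SRF (25.5 ± 1.04) and TPM4 (23.6 ± 3.26). In hemin nilotinib, ACTB (354 ± 83.5) stood alone at the top, while TMSB4X (114 ± 11.8), PFN1 (112 ± 24.2), ACTG1 (102.7 ± 28.1) and TMSB10 (102.7 ± 4.96) could not be separated. MYH9 (57.0 ± 5.07), CFL1 (36.4 ± 10.6), SRF (17.3 ± 2.64), TPM4 (5.08 ± 1.34) and VIM (2.33 ± 1.13) followed.

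Over the 12 libraries, which hold the 4 groups, ACTG1 and VIM had the highest Pearson correlation of log2 CPM among the 10 genes (0.964), and TMSB4X and MYH9 the lowest (-0.928). The genes most like ACTB by the same measure among 12494 with at least 100 counts on average were NAA20 (0.973), ERCC8 (0.969), MPI (0.968), TBL3 (0.968) and TMEM52 (0.964). These are descriptions over libraries that share 4 treatments and 1 scaling.

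As a reference for RT–qPCR, ACTB was set beside 11 other genes in common use for that purpose and ACTG1. The coefficient of variation of ACTB over the 12 libraries was 28.3%, rank 8 of the 13 genes, between YWHAZ (26.1%) and TBP (30.5%). RPLP0, a ribosomal protein of the stalk, varied least (15.5%), and PGK1 (51.1%) and ACTG1 (66.3%) varied most. ACTB was lower than in mock DMSO in all other groups, by a log2 ratio of means of -0.81 in mock nilotinib, -0.60 in hemin DMSO and -0.70 in hemin nilotinib. Among these 11 reference genes under nilotinib, 2 rose and 2 fell without hemin, from 0.0064 in size for TUBB to -1.37 for the glycolytic gene PGK1, and 2 rose and 6 fell with hemin, from 0.22 in size for RPLP0 to -1.24 for PGK1. Under hemin 4 rose and 1 fell without nilotinib, from 0.22 for B2M to 0.93 for HPRT1, and 1 rose with nilotinib, from 0.0050 in size for TUBB to 0.61 for PGK1. Among all genes tested 20.7% rose and 21.8% fell under nilotinib without hemin, 32.4% and 31.8% with hemin, 25.7% and 27.8% under hemin without nilotinib, and 3.52% and 2.28% with it.

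**Figure D4:**
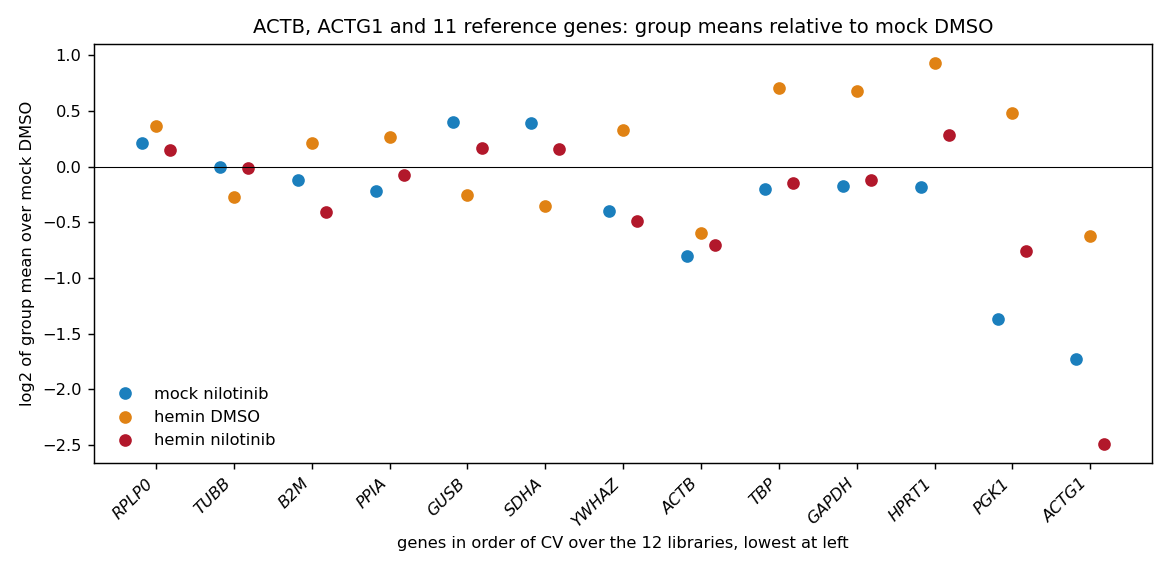
log2 ratio of each group's mean CPM to that of mock DMSO (y axis) for ACTB, ACTG1 and 11 reference genes, ordered along the x axis by coefficient of variation from 15.5% (RPLP0) to 66.3% (ACTG1). The 3 ACTB points lie at -0.81, -0.60 and -0.70, all below 0.

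Counts of 11 erythroid genes named as RT–qPCR targets were then divided by those of ACTB within each library. As ACTB was lower than in mock DMSO in the other groups, this had to raise all log2 ratios to mock DMSO by about its fall. The median rise over the targets was 0.81 in mock nilotinib, 0.63 in hemin DMSO and 0.75 in hemin nilotinib. In the nilotinib groups no sign changed. In hemin DMSO 2 of 11 signs changed: FECH, the enzyme that inserts iron into heme, went from -0.24 to 0.40, and GYPC, a membrane sialoglycoprotein, from -0.51 to 0.088. ALAD, a heme synthesis enzyme, went from -0.71 to -0.07. These shifts are of counts and not of the amplified products.

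Other genes of the actin cytoskeleton were taken from 13 lists with 108 genes, of which 103 were tested. The lists too were chosen with earlier results of these data known. With hemin, 61 of them fell and 15 rose under nilotinib (median log2 fold change -0.53), and without hemin 38 fell and 15 rose (median -0.30), against the background shares given above. Hemin raised 33 and lowered 22 without nilotinib and raised 1 and lowered 4 with it, beside 25.7% and 27.8%, and 3.52% and 2.28%, of all genes tested. With the reference gene factors in place of TMM the median of all 20821 genes moved by 0.66 under nilotinib with hemin, by 0.12 without, by -0.66 under hemin without nilotinib and by -0.13 with it. Such factors shift all genes of a library alike, so the difference between the median of the 10 genes and of all genes could hardly change. Under nilotinib with hemin it was -1.28, and -1.30 with TMM, which says nothing on the choice of scaling. Under nilotinib with hemin the 10 genes then split into 2 up and 5 down, and all genes called into 10755 up and 3247 down, in place of 6748 and 6611. Under hemin without nilotinib they split into 0 up and 6 down with the reference gene factors and 0 up and 4 down with library totals.

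**Figure D5:**
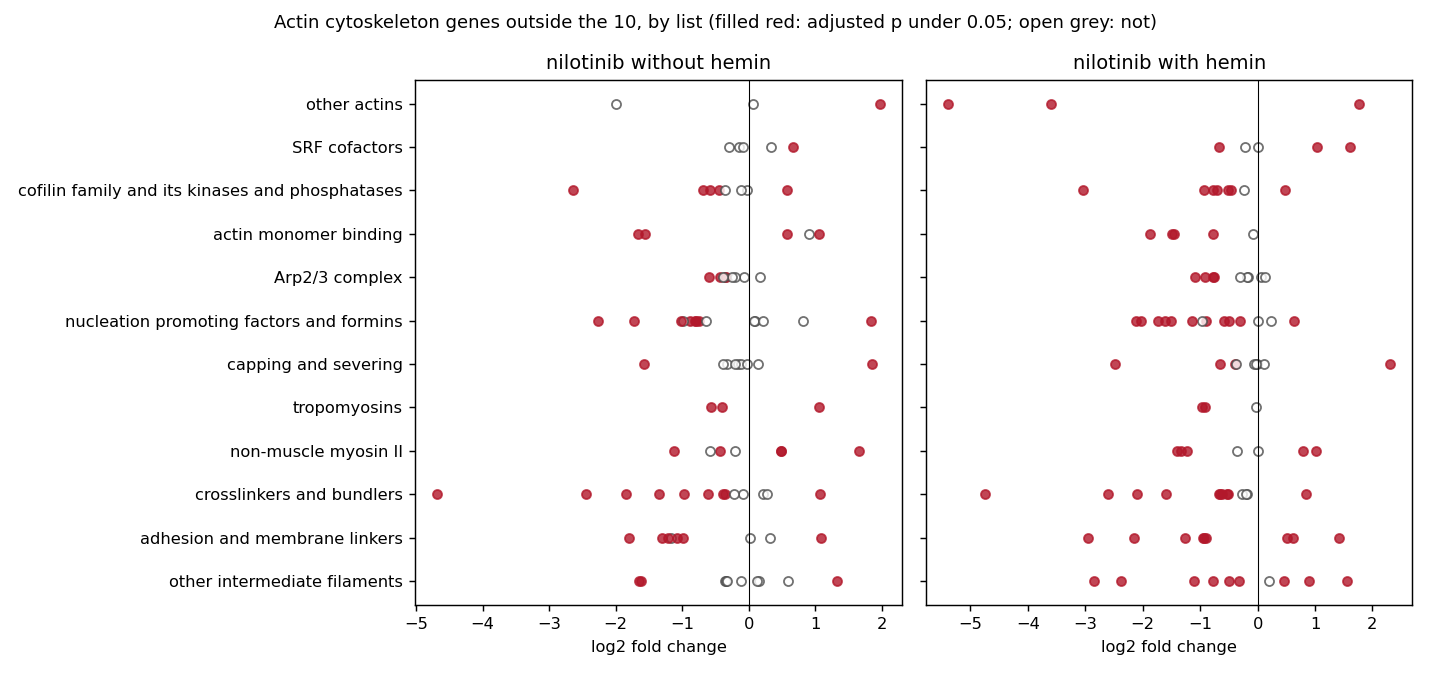
log2 fold change (x axis) of the 95 tested genes of 12 actin cytoskeleton lists (rows) under nilotinib without hemin (left) and with hemin (right). Filled red points have an adjusted p under 0.05. With hemin 56 of these genes fell and 15 rose, and without hemin 36 fell and 14 rose.

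Of all genes tested, 31.8% fell and 32.4% rose under nilotinib with hemin, and 21.8% and 20.7% without. These are the shares to set beside the counts per list below. A gene named in only 1 hemin state may have moved in the other as well. Among crosslinkers and bundlers, 9 of 13 tested genes fell and 1 rose under nilotinib with hemin, and 8 fell and 1 rose without. CORO1A, a coronin of blood cells, fell by 4.74 with and 4.68 without hemin on the log2 scale (means of 35.0 to 1.29 and 26.7 to 1.03 CPM). LCP1, the leukocyte plastin, fell by 2.61 and 2.45. Of 14 nucleation promoting factors and formins, 10 fell and 1 rose with hemin and 7 fell and 1 rose without. The leukocyte formin FMNL1 fell by 2.12 and 2.26, and WAS, an activator of the Arp2/3 complex in blood cells, by 2.03 and 1.73. FMNL2 fell by 1.74 with hemin, and DAAM1, another formin, rose by 1.83 without it. The mean of DAAM1 was also higher under nilotinib with hemin (37.1 to 57.7 CPM). In the Arp2/3 complex itself 4 of 9 subunits fell with hemin (ARPC5L by 1.09, ARPC3 by 0.91, ACTR2 by 0.77) and 3 without (ARPC5L by 0.60, ACTR2 by 0.44, ARPC2 by 0.34), and none rose. Falls in so few genes are not set apart from the shares of all genes that fell.

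Genes that handle monomers and filament ends moved in both directions. The shares of all genes that fell under nilotinib were 31.8% with hemin and 21.8% without. CAP1, a cyclase-associated protein, fell by 1.87 with and 1.66 without hemin, the twinfilin TWF2 fell 2.82-fold and 2.93-fold, and TWF1 fell by 0.77 with hemin but rose by 0.58 without. In the cofilin list 6 of 8 genes fell and 1 rose with hemin (DSTN, a relative of cofilin, by 0.93, and the cofilin phosphatases SSH1 by 0.78 and SSH2 by 0.71), and 4 fell and 1 rose without, among them the cofilin kinases LIMK1 (-0.69) and LIMK2 (0.57) and the phosphatase PDXP (-0.58). Among 9 capping and severing genes, CAPG fell by 2.48 and 1.57, and CAPZA1, a subunit of capping protein, by 0.66 with hemin. TMOD1, the tropomodulin that caps the short actin filaments of red cells, rose by 2.31 with hemin (44.6 ± 10.2 to 222 ± 24.5 CPM) and by 1.86 without (83.2 ± 8.97 to 302 ± 57.8 CPM, SD, n = 3).

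Tropomyosins other than TPM4 fell by less: TPM1 by 0.97 and TPM3 by 0.91 with hemin, and by 0.56 and 0.40 without, where TPM2 rose by 1.05. Of 7 other non-muscle myosin II genes, 3 light chains fell with hemin, MYL12A by 1.40, MYL6B by 1.34 and MYL12B by 1.24, while the heavy chains rose. MYH10 rose by 1.02 with and 0.49 without hemin and MYH14 by 0.79 and 1.66, in the same direction as MYH9, whereas MYL12A fell by 1.13 without hemin. In the adhesion list 6 of 9 fell and 3 rose with hemin, where 31.8% of all genes fell and 32.4% rose. The zyxin gene ZYX fell by 2.14 and 1.79 and VASP by 1.27 and 1.21, VCL (vinculin) fell by 1.30 without hemin, and TLN1 (talin) rose by 1.43 with hemin. In the other hemin state VCL was also lower under nilotinib (means of 421 to 217 CPM) and TLN1 also higher (740 to 1574 CPM).

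Other intermediate filament genes included the keratins KRT8, which fell by 2.85 with hemin (621 ± 122 to 86.1 ± 11.9 CPM, SD, n = 3) and by 1.62 without, and KRT10, which fell by 1.11 with hemin, while DES (desmin) rose by 0.90 and 1.33. Of 5 SRF cofactors, MRTFB, a cofactor that binds actin monomers, rose by 1.61 with hemin, ELK4 rose by 1.03 with and 0.66 without, and ELK3 fell by 0.67 with hemin.

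Under hemin without nilotinib, where the reference gene factors lower all values by the shift given above, named genes moved in both directions. MRTFB fell by 1.60, ELK4 by 0.73 and ELK1 by 0.48, TMOD1 by 0.90 and TMOD2 by 0.96, TLN1 by 0.44, EVL by 0.76, EZR by 0.42, FLNA by 0.58, RAC2 by 0.92 and ARPC5 by 0.50. KRT8 rose by 0.86, KRT10 by 1.30 and NES by 0.83, the light chains MYL12B by 0.92 and MYL6B by 0.84 and the heavy chain MYH14 by 0.81, TPM3 by 0.62 and TPM1 by 0.40. FMNL2 rose by 2.68, WASL by 1.34, DAAM1 by 1.09, TWF1 by 1.40, PLS1 by 0.93, RAC1 by 0.70, SSH2 by 0.66, ARPC5L by 0.64, ARPC3 by 0.63, ROCK2 by 0.59, CNN2 by 0.55 and CAPZA1 by 0.47. With nilotinib present, hemin raised CORO1C by 0.63 and lowered TPM2 by 1.64, PAK1 by 0.89 and GSN (gelsolin) by 0.68. All these comparisons share groups of libraries with the nilotinib comparisons and are not independent of them.

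The other actins were far lower than ACTB and ACTG1. ACTA1, the skeletal muscle actin, was under the mean count of 100 set for naming and was chosen after its values were seen. It had 2, 7 and 4 counts in mock DMSO, 4, 4 and 2 in mock nilotinib, 105, 326 and 332 in hemin DMSO, and 2, 4 and 14 in hemin nilotinib. It therefore stood high only in hemin DMSO, with a log2 fold change of 6.33 under hemin without nilotinib. There it reached 3.22, 10.4 and 8.42 CPM, and the difference between both nilotinib responses was -5.45. ACTA1 had enough counts for a test only through hemin DMSO, where it was high, so no p is given for it. The folds rest on few counts in the other groups. ACTC1 had 26, 58 and 68 counts in hemin DMSO and at most 13 in any other library. Its test likewise rested on that group, so calls of the other actins are not counted here. Both genes are part of the counts over the 13 lists above.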

How the data were processed

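RNA of 12 K562 libraries was sequenced as 150-base paired-end reads by a service company. The authors deposited raw counts of reads per gene, without normalization. The aligner and counting program are not given in the sources used here. The submitters' processing notes name GRCh38.p12, DESeq2 and DESeq. The deposited FPKM equal counts per kb divided by median-of-ratios size factors within 1% in 100% of values. They were used only with limma on log2(FPKM + 1). Gene identifiers, positions and exon overlaps were taken from GENCODE 29, and promoter windows from RefSeq.

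Tests on the counts used edgeR 4.0.16 under R 4.3.3 (filterByExpr with a minimum count of 10 and a minimum total of 15, TMM, quasi-likelihood fit of 12 libraries with 1 mean per group). All p were two-sided, adjusted by Benjamini-Hochberg over 20821 genes, and a call needed an adjusted p under 0.05. The 10 genes and all lists were chosen with earlier results of these data known. Named beside them were up to 3 genes per list and comparison with the largest change among those called with a mean of at least 100 counts, pseudogenes with at least 20 counts, and the 5 genes most correlated with ACTB. Replicate numbers came from the labels. Same-numbered libraries deviated together (every correlation over 0.1) between mock DMSO and mock nilotinib (0.131 to 0.141) and between mock nilotinib and hemin nilotinib (0.332 to 0.373). The number was taken to pair these. Mock nilotinib and hemin DMSO, which no comparison sets against each other, also passed this cut (0.103 to 0.152). Mock DMSO and hemin DMSO missed the cut narrowly (0.0941 to 0.130), and mock DMSO and hemin nilotinib by more (-0.109 to 0.140). The numbers thus did not pair all groups alike, while the replicate block held 1 effect per number over all 12 libraries. Libraries of different numbers were not compared. The libraries are biological replicates per the study's methods, and no 2 agreed within counting noise. Alternatives used DESeq2 1.42.0, limma 3.58.1, other scaling factors, a filter of at least 1 count, fits restricted to the 2 groups compared, the replicate block, pseudogene counts added to their parents, and each library left out. The fits were tested on simulated counts. Some listed genes, 1 of the 12 reference genes among them, are not reported here. Annotation and figures were made in Python.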

Additional observations from a re-analysis of the deposited data

Results flagged for a closer look

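Results are listed here when the response to nilotinib differed between cells with and without hemin by the interaction test of edgeR at an adjusted p under 0.05, given as the response with hemin minus that without, on the log2 scale. Time in nilotinib may differ along with hemin and cannot be told apart from it in this test. Among all genes tested, 17.1% were higher and 13% lower by this test. Of the 10 genes, TMSB10 (-0.69, adjusted p = 0.0370) and TPM4 (0.75, adjusted p = 0.0285) passed, and of the pseudogenes ACTBP8 (1.12, adjusted p = 0.00973). Among the other named cytoskeleton genes the difference was negative for ACTA1 (-5.45, tested only through the group where it was high), FMNL2 (-2.55), WASL (-1.36), TWF1 (-1.35), PAK1 (-1.35), KRT10 (-1.25), KRT8 (-1.23), DAAM1 (-1.20), MYL6B (-1.13), CNN2 (-0.97), PLS1 (-0.95), MYL12B (-0.80), RAC1 (-0.79), ARPC3 (-0.70), RHOA (-0.66), SSH2 (-0.60), ROCK2 (-0.50) and ARPC5L (-0.49). It was positive for MYH10 (0.53), EVL (0.60), CORO1C (0.62), RAC2 (0.65), FLNA (0.81) and MRTFB (1.28).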

How the results depend on the processing

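Under nilotinib without hemin, 146 of 150 values of the 10 genes kept their direction and side of the threshold, and with hemin 137 of 150. Under hemin they were 110 of 150 without and 122 of 160 with nilotinib, and 155 of 200 for the interaction. Several of the 12 reference genes themselves moved under the treatments, so factors from them shift every gene. The cause of the other changes was not tested.

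Nilotinib with hemin reversed for ACTB with library totals (0.074) and reference factors (0.57), and ranged from -0.30 to 0.091 with 1 library left out. It reversed with reference factors for SRF (0.30) and PFN1 (0.065). Hemin without nilotinib reversed with reference factors for CFL1 (-0.32), PFN1 (-0.17), TMSB4X (-0.23) and TMSB10 (-0.30), and for TPM4 with RLE factors (0.0049) and with the libraries of the comparison alone (0.00068), with a range of -0.19 to 0.045 over libraries left out. Hemin with nilotinib reversed for SRF with DESeq2 (-0.0057), RLE factors (-0.0032), library totals (-0.032), reference factors (-0.13) and limma (-0.014), with a range of -0.11 to 0.10, and for ACTB with reference factors (-0.031), with a range of -0.11 to 0.21. The interaction reversed for ACTG1, CFL1 and PFN1 with library totals (0.085, 0.12 and 0.0046) and reference factors (0.43, 0.47 and 0.35), and for VIM with reference factors (0.21). With 1 library left out it ranged from -0.35 to 0.083 for ACTG1, -0.32 to 0.13 for CFL1, -0.36 to 0.0062 for PFN1, -0.049 to 0.22 for TMSB4X and -0.64 to 0.0018 for VIM.

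Of the 10 genes, hemin with nilotinib changed 1 with RLE factors or library totals, 4 with at least 1 count, 0 with limma or with the comparison's libraries alone, and 0 to 3 with 1 library left out. Hemin without nilotinib changed 8 with the comparison's libraries alone and 2 to 5 with 1 left out. The interaction changed 5 with reference factors, 0 with limma and 0 to 2 with 1 left out. Of the listed cytoskeleton genes, hemin with nilotinib changed 10 with DESeq2, 12 with reference factors, 9 with at least 1 count, 3 with limma, 0 with the comparison's libraries alone and 0 to 8 with 1 left out, in place of 5. Of all genes it changed 1902 with DESeq2, 1987 with at least 1 count, 741 with limma, 183 with the comparison's libraries alone and 213 to 2793 with 1 left out, in place of 1208. The highest count came without hemin nilotinib replicate 1.

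With the replicate block, the comparisons taken as paired changed their call for PFN1 under nilotinib without hemin (-0.42) and ACTG1 under hemin with nilotinib (-0.76). So did TMSB10 under hemin without nilotinib (0.38), where the numbers were not taken to pair. In a block fit of the libraries of hemin with nilotinib alone, chosen after seeing the data, 4 of the 10 genes and 13 listed genes changed.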
